A study of Homo sapiens and Mus musculus with 56 samples.

Results

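The p53 target genes described here are 31 genes that the transcription factor p53 is known to switch on, given as a list of symbols. The list was drawn up with earlier results of these data known. Of the 31, 29 had a probe set on the human arrays (not BTG2 and FDXR) and 28 on the mouse arrays (not Gdf15, Fdxr and Tp53i3), against 19775 human and 18193 mouse genes with a probe set of 1 symbol. Each gene was read from 1 probe set, the one with the highest mean. The 56 arrays came from 5 leukaemia cell models, and cells of each model received 1 of 4 treatments. EPZ004777 inhibits DOT1L, which methylates histone H3, MI-2-2 keeps menin from binding KMT2A (also called MLL), the combination held both compounds, and DMSO was the vehicle. RS4;11, SEM and REH are lines of B-lineage acute lymphoblastic leukaemia that were treated for 6 days with 3 µM EPZ004777, 10 µM MI-2-2, both, or DMSO. MOLM-13, an acute myeloid leukaemia line, and mouse leukaemic cells transformed with MLL-AF9 were treated for 4 days with 3 µM EPZ004777, 3 µM MI-2-2, both, or DMSO. The labels give no separate doses for the compounds within the combination. RS4;11 and SEM carry a KMT2A-AFF1 fusion, MOLM-13 carries KMT2A-MLLT3, the human name of MLL-AF9, and REH carries an ETV6-RUNX1 fusion and no KMT2A fusion. Each line is a single established line, and the mouse cells are a primary culture kept in interleukin-3, interleukin-6 and stem cell factor. Groups held 3 arrays, except that RS4;11 DMSO, SEM combination, SEM MI-2-2 and SEM DMSO held 2 each.

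p53 is held at a low level by MDM2, which is itself a p53 target, so that the pathway limits its own activity. When p53 is stabilised it raises genes that stop the cell cycle, genes that promote cell death, genes of DNA repair and genes of antioxidant metabolism. In human cells p53 binds a response element made of 2 half-sites, and many of its targets hold such an element near a start site.

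The windows around the start sites (250 bases before to 50 bases after, RefSeq, GRCh38.p14) matched 25 of the 31 genes, with 37 windows in all. They were scanned for the p53 response element, which reads the same on both strands, with the C and G of each half-site kept, at most 2 mismatches over its 20 positions and half-sites at most 13 bases apart. Such a match lay in 6 of the 37 windows (16.2%), in 5 genes, against 2.93% of all 35116 windows. A match is a run of letters and not a measured binding site, and its absence from a window says nothing about p53. The 4 windows below are shown because FAS, AEN and part of the MDM2 probe sets fell in REH, and because the DDB2 window held the one match without a mismatch among these genes. Capitals mark the half-sites.
FAS (chr10:88991181-88991480, plus strand): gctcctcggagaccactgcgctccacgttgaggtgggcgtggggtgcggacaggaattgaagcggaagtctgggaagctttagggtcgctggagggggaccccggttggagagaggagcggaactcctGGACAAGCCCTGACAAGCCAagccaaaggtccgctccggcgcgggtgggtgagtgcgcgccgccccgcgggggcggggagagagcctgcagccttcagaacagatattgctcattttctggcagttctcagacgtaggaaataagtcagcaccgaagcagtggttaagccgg
MDM2 (chr12:68808767-68809066, plus strand): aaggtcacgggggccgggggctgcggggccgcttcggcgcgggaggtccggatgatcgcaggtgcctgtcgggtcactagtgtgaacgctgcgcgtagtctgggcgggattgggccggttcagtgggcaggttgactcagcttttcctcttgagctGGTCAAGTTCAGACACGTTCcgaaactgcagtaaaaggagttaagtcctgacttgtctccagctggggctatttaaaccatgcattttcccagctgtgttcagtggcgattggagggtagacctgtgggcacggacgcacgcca
AEN (chr15:88621090-88621389, plus strand): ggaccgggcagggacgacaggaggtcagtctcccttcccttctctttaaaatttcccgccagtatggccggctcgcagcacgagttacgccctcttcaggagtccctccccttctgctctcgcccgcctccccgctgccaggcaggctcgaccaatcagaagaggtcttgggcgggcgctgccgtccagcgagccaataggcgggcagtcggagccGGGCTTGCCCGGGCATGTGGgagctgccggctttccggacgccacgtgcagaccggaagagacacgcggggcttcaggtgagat
DDB2 (chr11:47214724-47215023, plus strand): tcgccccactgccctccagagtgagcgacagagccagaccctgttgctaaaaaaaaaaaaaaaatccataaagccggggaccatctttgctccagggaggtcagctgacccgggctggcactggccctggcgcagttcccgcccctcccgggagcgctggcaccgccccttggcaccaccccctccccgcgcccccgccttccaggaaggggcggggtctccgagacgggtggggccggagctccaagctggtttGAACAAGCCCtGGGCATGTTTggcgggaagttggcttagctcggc
FAS, MDM2 and AEN held 2 mismatches with no base between the half-sites, and DDB2 held 0 mismatches with 1 base between them. A further, overlapping MDM2 window holds the same match, and the fifth gene with a match was FDXR, whose level was not analysed here. The windows of CDKN1A, SESN1, TIGAR, TP53I3 and ZMAT3 held no match under these limits.

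Values were deposited on the log2 scale, and an array's median was 5.54 to 5.66 in the 3 lymphoid lines, 6.18 to 6.25 in MOLM-13 and 6.13 to 6.25 in the mouse cells. Levels were therefore compared within a cell model, except for the DMSO levels of FAS and TP53I3, which were set side by side between lymphoid lines. Of the markers of the labelled lineage, 5 of 5 measured B-lymphoid markers passed the filter on low signal in RS4;11 and SEM and 4 of 5 in REH. In the mouse cells and MOLM-13, 5 of 5 myeloid markers passed. Markers of other lineages passed too, among them 4 of 5 myeloid markers in RS4;11 and SEM, and 3 of 5 in REH. B-lymphoid markers passed for 4 of 5 in the mouse cells and 2 of 5 in MOLM-13, where 2 of 4 T and NK cell markers also passed. Passing the filter therefore did not separate the lineages. Array quality, read as 3' minus 5' signal of the control genes, moved with some groups. On the SEM arrays the actin value was 1.83 to 1.93 with MI-2-2 or the combination, against 2.32 to 2.48 with EPZ004777 or DMSO. On the treated REH arrays it was 2.36 to 2.87, against 2.75 to 3.65 on the REH DMSO arrays. Mouse combination replicates 2 and 3 had GAPDH values of 1.504 and 2.047, against at most 0.65 on the other mouse arrays. In these bulk RNA samples, a change in the kinds of cells present and a change in RNA per cell cannot be told apart.

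A gene entered a cell model's fit when its probe set exceeded an array's 40th percentile for 2 or more arrays, and 27 of the p53 targets did so in each of the 5 models. EDA2R and SPATA18 stayed below it in the human lines and Spata18 in the mouse cells. A change is the treated mean minus the DMSO mean in log2 units, given with its standard error (SE) from limma, and a gene is called where its p, adjusted by Benjamini and Hochberg's method over all genes tested, is under 0.05. The 3 comparisons of a cell model share its DMSO arrays. The heat map shows that the members did not move as a block. Calls in REH were nearly all lower and calls in SEM mostly higher. In MOLM-13 they were mostly lower with EPZ004777 and divided with MI-2-2 and the combination. Calls in the mouse combination were divided.

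**Figure D1:**
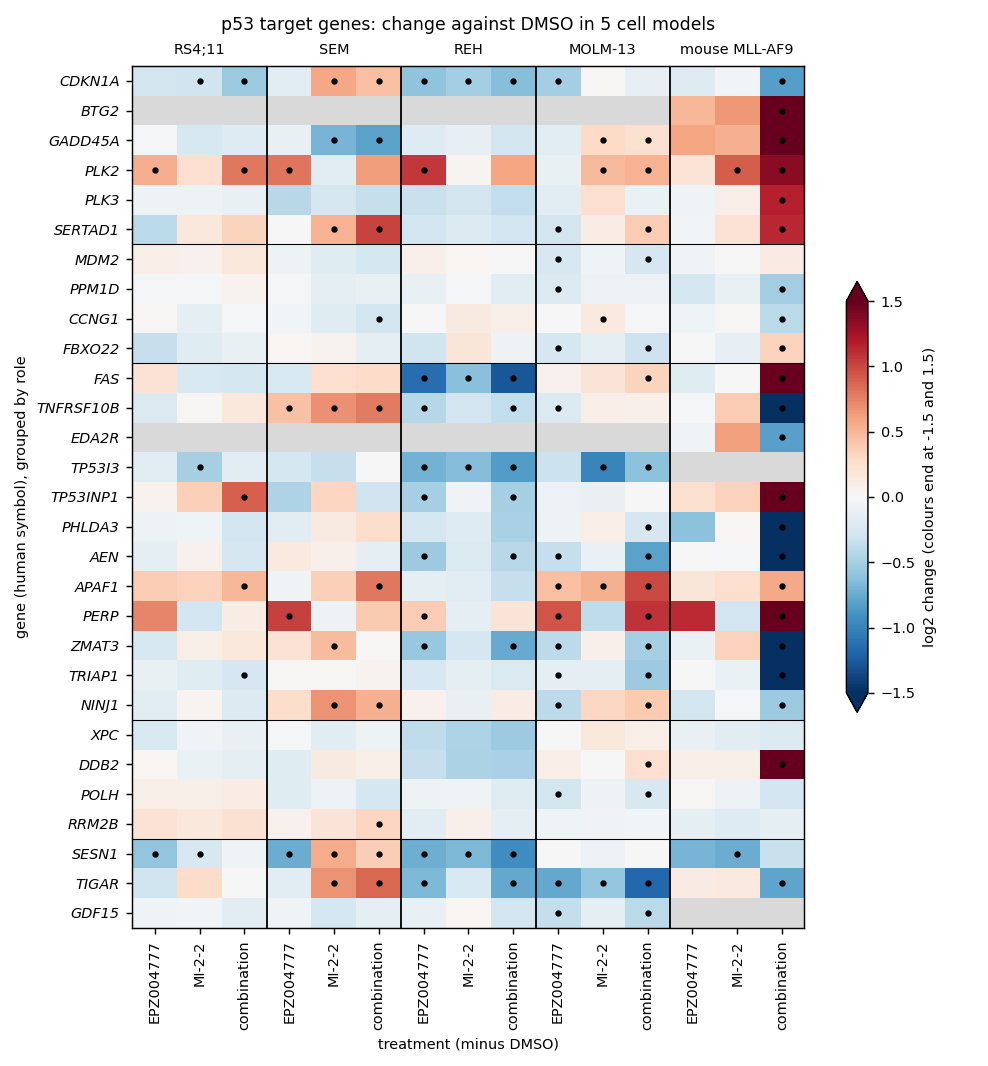
Colour gives the log2 change of each p53 target gene (rows, grouped by role) against DMSO for 3 treatments in 5 cell models (columns), black dots mark genes called at adjusted p under 0.05, and grey marks genes not tested. The REH columns are mostly blue with 9 lower calls for EPZ004777 and 9 for the combination, while the mouse combination column holds 11 higher and 11 lower calls.

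In REH, the line without a KMT2A fusion, EPZ004777 and the combination each lowered 33.3% of the tested p53 targets, among them the death receptor gene FAS, the cell cycle inhibitor gene CDKN1A and the antioxidant regulator gene SESN1. EPZ004777 lowered 9 of 27 members, where 1.13% of all 13888 genes were called lower, and raised 2, where 2.82% were called higher. The combination lowered 9, against 2.93% of all genes called lower, and raised 0, against 4.1% called higher. MI-2-2 lowered 4, against 0.85% of all genes, and raised 0, against 0.396%. The median change of the 27 members was −0.29, −0.17 and −0.35 for EPZ004777, MI-2-2 and the combination, while the median of all genes was −0.02, −0.02 and −0.00. At an unadjusted p under 0.05 limma found 15, 9 and 18 members in either direction. B-lymphoid markers summed to 51.6 to 53.04 over 5 markers on the treated REH arrays and to 51.7 to 56.9 on the DMSO arrays, and myeloid markers to 28.0 to 30.7 and 28.99 to 31.01; 0 of 4 T and NK cell markers passed the filter. The part of these markers in the p53 targets was not tested.

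FAS, a receptor through which cells are signalled to die, had 7.18, 7.20 and 7.05 on the EPZ004777 arrays of REH, 7.598, 7.68 and 7.68 on MI-2-2, 7.02, 7.01 and 6.996 on the combination, and 8.65, 8.05 and 8.15 on DMSO. All treated arrays lay below all DMSO arrays. Its changes were −1.14 ± 0.13, −0.63 ± 0.13 and −1.27 ± 0.13 (SE) in that order, with limma adjusted p of 0.00036, 0.0382 and 0.000127. SESN1, which restrains growth signalling and counters oxidative stress, had 8.30, 8.50 and 8.37 with EPZ004777, 8.48, 8.42 and 8.45 with MI-2-2, 8.08, 8.24 and 8.25 with the combination, and 8.90, 9.01 and 9.47 with DMSO. The groups again did not overlap, and the changes were −0.73 ± 0.13, −0.67 ± 0.13 and −0.93 ± 0.13 (limma adjusted p = 0.00668, 0.0315 and 0.00112). CDKN1A, which encodes p21, had 10.44, 10.45 and 10.45 with EPZ004777, 10.60, 10.45 and 10.57 with MI-2-2, 10.26, 10.48 and 10.48 with the combination, and 10.86, 11.06 and 11.22 with DMSO. Every treated array was below every DMSO array for CDKN1A too. Its changes were −0.60 ± 0.10, −0.51 ± 0.10 and −0.64 ± 0.10 (limma adjusted p = 0.0057, 0.037 and 0.00274).

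PLK2, a kinase gene of the stress response, was the exception among the REH members of large change. Its values were 8.27, 8.37 and 8.08 with EPZ004777, 6.94, 7.61 and 7.11 with MI-2-2, 7.73, 7.63 and 7.97 with the combination, and 6.91, 6.96 and 7.66 with DMSO. The EPZ004777 arrays were above all DMSO arrays and the other treated groups reached into the DMSO range. The EPZ004777 change was 1.06 ± 0.21 (limma adjusted p = 0.0118), and the call was lost without EPZ004777 replicate 1 or 2, with an adjusted p of up to 0.0531. PERP, a membrane protein gene of epithelial adhesion and apoptosis, was the other REH member raised by EPZ004777, by 0.38 ± 0.09.

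**Figure D2:**
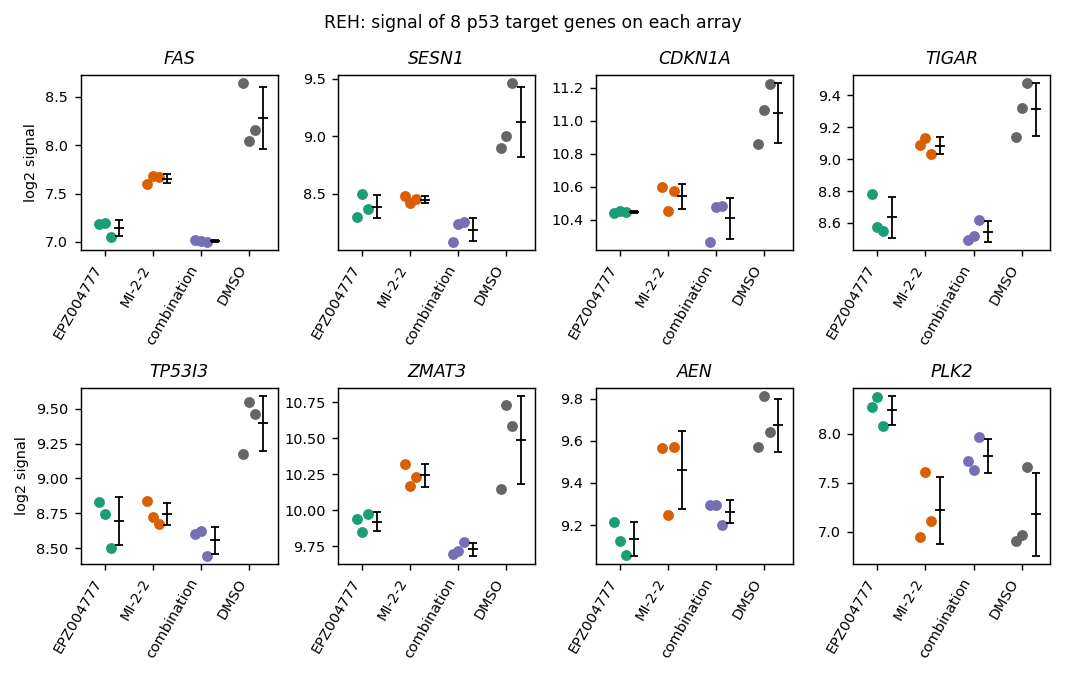
Each panel plots the log2 signal (vertical axis) of 1 p53 target gene on the 12 REH arrays, with points for arrays and a bar for the mean ± SD of the 3 arrays of a group. FAS, SESN1, CDKN1A, TIGAR and TP53I3 lie lower on every treated array than on any DMSO array, ZMAT3 and AEN overlap with DMSO after MI-2-2, and PLK2 is highest after EPZ004777.

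TIGAR, ZMAT3, AEN, TP53INP1 and TNFRSF10B fell in REH with both EPZ004777 and the combination and had no call for MI-2-2. TIGAR, which lowers glycolytic flux, changed by −0.68 ± 0.10 and −0.77 ± 0.10. ZMAT3, an RNA-binding zinc finger protein gene, changed by −0.57 ± 0.13 and −0.76 ± 0.13. AEN, an apoptosis-enhancing nuclease gene, changed by −0.54 ± 0.11 and −0.41 ± 0.11, and TP53INP1, an autophagy and apoptosis gene, by −0.50 ± 0.11 in both comparisons. TNFRSF10B, a receptor for the death ligand TRAIL, changed by −0.43 ± 0.09 and −0.37 ± 0.09. TP53I3, an oxidoreductase gene, fell under all 3 treatments: EPZ004777 by 0.70, MI-2-2 by 0.65, the combination by 0.84. The DNA repair genes XPC and DDB2 had combination changes of −0.54 ± 0.15 and −0.49 ± 0.18 without passing the test (limma adjusted p = 0.051 and 0.125).

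Between the REH combination and EPZ004777 alone limma called 0 of 27 members, with 1 at an unadjusted p under 0.05, and 15 of all 13888 genes (0.108%; 0.0648% higher and 0.0432% lower). Against MI-2-2 alone the combination was lower for FAS by 0.64 and TIGAR by 0.54, the 2 members called, where 0.18% of all genes were called lower and 1.63% higher. In the combination, FAS, SESN1, TP53I3, TIGAR, ZMAT3 and CDKN1A kept their calls under each of the 15 alternatives run, including REH DMSO replicates 1 and 3 left out together. With the actin value of each array as a covariate the count of called members was 6 for EPZ004777, 0 for MI-2-2 and 8 for the combination. The share of all genes called under that covariate is not given here. The MI-2-2 count was also 0 without any 1 of its 3 arrays, and the EPZ004777 count was 6, 6 and 7 without its replicate 1, 2 or 3. Calls over all genes varied as well when single REH arrays were left out, from 18 to 1306 for MI-2-2 and from 279 to 1031 for EPZ004777.

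MDM2, which encodes the ubiquitin ligase that removes p53, gave different answers from different probe sets. The probe set of highest mean, 229711_s_at, had 13.02, 12.99 and 13.15 with EPZ004777, 12.96, 12.90 and 13.18 with MI-2-2, 13.01, 13.03 and 12.92 with the combination, and 13.001, 12.96 and 12.98 with DMSO in REH. Its groups overlapped and its combination change was 0.01 ± 0.09 (limma adjusted p = 0.975). Probe set 205386_s_at had 6.34, 5.76 and 6.34 with EPZ004777, 7.50, 7.28 and 8.02 with MI-2-2, 6.35, 6.27 and 5.95 with the combination, and 8.01, 8.33 and 8.49 with DMSO. Its EPZ004777 and combination arrays lay more than a log2 unit below every DMSO array. When each of 27560 probe sets was tested on its own, it fell by 2.13 ± 0.21 with EPZ004777 and by 2.09 ± 0.21 with the combination (limma adjusted p = 0.000314 and 0.000237). The share of all probe sets called lower was 0.693% for EPZ004777, 0.457% for MI-2-2 and 1.89% for the combination. Probe set 211832_s_at fell under all 3 treatments, EPZ004777 by 1.41 ± 0.15, MI-2-2 by 0.75 ± 0.15 and the combination by 1.80 ± 0.15. Of the 9 MDM2 probe sets tested in REH, 2, 1 and 3 were called for EPZ004777, MI-2-2 and the combination, all lower, and the third for the combination was 217373_x_at at −0.89 ± 0.21. The probe-set test was added after the disagreement had been seen, and which transcripts each probe set reads was not analysed here.

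**Figure D3:**
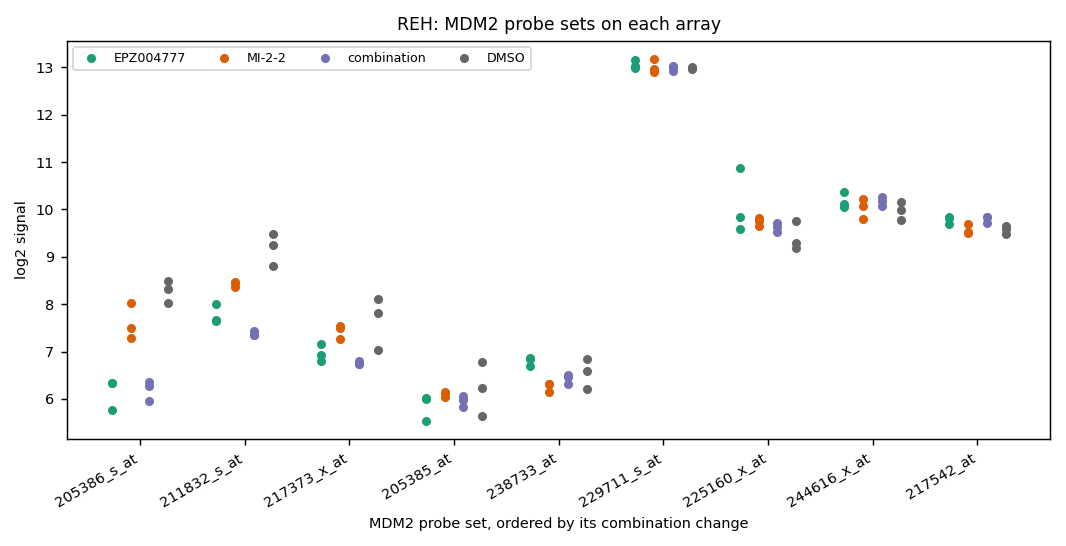
The log2 signal (vertical axis) of 9 MDM2 probe sets (horizontal axis, from the lowest to the highest combination change) is plotted on the 12 REH arrays, coloured by treatment. The 3 probe sets on the left are lower with the combination than with DMSO, by 2.09, 1.80 and 0.89, whereas 229711_s_at near 13 is level across treatments.

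The MDM2 probe sets gave other calls in the other lines, a difference between lines that was not tested per probe set. In RS4;11, 211832_s_at had 6.24, 6.34 and 6.42 with the combination against 5.43 and 5.57 with DMSO, with no overlap, and was higher by 0.83 ± 0.16 (limma adjusted p = 0.00437, all probe sets tested, of which 9.73% were called higher). In SEM it changed by −0.63 ± 0.25 with the combination, which did not pass the test (adjusted p = 0.0938). Of the 8 MDM2 probe sets tested in SEM, 2 were called lower with the combination, against 15.3% of all probe sets, and 2 with MI-2-2, against 7.69%. The combination calls were 217542_at at −0.52 ± 0.10 and 225160_x_at at −0.33 ± 0.10 (limma adjusted p = 0.00665 and 0.0492), and the MI-2-2 calls were 238733_at at −1.02 ± 0.25 and 217542_at at −0.45 ± 0.10 (limma adjusted p = 0.0287 and 0.0217). In MOLM-13, 7 of 9 MDM2 probe sets were called lower with the combination, against 23.9% of all probe sets, and 6 of 9 with EPZ004777, against 10.9%. The probe set of highest mean was among them, at 12.68, 12.87 and 12.87 with EPZ004777, 13.01, 12.92 and 13.01 with MI-2-2, 12.79, 12.81 and 12.80 with the combination, and 13.04, 13.04 and 13.07 with DMSO in MOLM-13. For PHLDA3, an AKT-inhibiting target, the probe sets differed in the size of the change and not in its direction. In REH its chosen probe set changed by −0.49 ± 0.20 with the combination and its other probe set by −1.16 ± 0.24.

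RS4;11 showed few changes among the p53 targets, and they ran both ways. EPZ004777 raised 1 member and lowered 1, against 4.51% and 2.08% of all 13867 genes, and MI-2-2 raised 0 and lowered 3, against 5.89% and 6.84%. The combination raised 3 and lowered 2, against 11.2% and 12.4% of all genes, so the shares of members called, 11.1% and 7.41%, were close to or below those of all genes. TP53INP1 had 8.86, 8.95 and 9.23 with EPZ004777, 9.44, 9.19 and 9.35 with MI-2-2, 10.00, 9.85 and 9.72 with the combination, and 9.01 and 8.92 with DMSO. The combination arrays were above all others, and its combination change of 0.90 ± 0.12 passed the test (limma adjusted p = 0.00032). CDKN1A had 10.95, 10.80 and 10.82 with EPZ004777, 10.81, 10.87 and 10.84 with MI-2-2, 10.61, 10.47 and 10.67 with the combination, and 11.10 and 11.17 with DMSO. All treated arrays were below both DMSO arrays, and CDKN1A fell with MI-2-2 by 0.29 ± 0.08 and with the combination by 0.55 ± 0.08 (limma adjusted p = 0.0286 and 0.000385). The MI-2-2 call of CDKN1A was lost without RS4;11 MI-2-2 replicate 1 or 3 or either DMSO array.

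In RS4;11, PLK2 had 6.63, 6.79 and 6.68 with EPZ004777, 6.46, 6.39 and 6.36 with MI-2-2, 6.74, 6.84 and 7.24 with the combination, and 6.00 and 6.30 with DMSO. It was higher than DMSO on every treated array, with called changes of 0.55 ± 0.14 for EPZ004777 and 0.79 ± 0.14 for the combination (limma adjusted p = 0.0385 and 0.00179). The EPZ004777 call of PLK2 did not hold without any 1 of the EPZ004777 or DMSO arrays, with adjusted p up to 0.249. SESN1 had 9.22, 9.18 and 9.16 with EPZ004777, 9.55, 9.55 and 9.49 with MI-2-2, 9.69, 9.68 and 9.77 with the combination, and 9.76 and 9.79 with DMSO. The EPZ004777 arrays were lowest and the combination arrays reached the DMSO level. SESN1 fell by 0.59 ± 0.06 with EPZ004777 and by 0.24 ± 0.06 with MI-2-2, and it was higher by 0.53 in the combination than with EPZ004777 alone (limma adjusted p = 0.000164, 0.0235 and 5.35e-05). Between the RS4;11 combination and EPZ004777 alone 5 members were higher and 3 lower, against 10% and 9.56% of all genes. APAF1, the scaffold of the apoptosome, and TRIAP1, an inhibitor of apoptosis, were the remaining combination calls, at 0.50 ± 0.16 and −0.25 ± 0.06. The MDM2 probe set of highest mean ranged from 12.34 to 12.63 on the treated RS4;11 arrays and was 12.39 and 12.33 with DMSO, with no call. Myeloid markers summed to 32.8 to 32.9 over 5 markers with the combination, against 29.4 to 29.5 with DMSO, and their part in the p53 targets was not tested. Without RS4;11 DMSO replicate 3 the counts of called members were 1, 1 and 3 for EPZ004777, MI-2-2 and the combination.

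SEM showed more members raised than lowered with MI-2-2 and with the combination. MI-2-2 raised 7 of 27, against 9.32% of all 13967 genes, and lowered 1, against 8.47%. The combination raised 8, against 14.3% of all genes, and lowered 2, against 15.2%, which makes 29.6% of the members higher and 7.41% lower. EPZ004777 raised 3 and lowered 1, against 4.55% and 4.12%. CDKN1A had 10.25, 9.95 and 10.21 with EPZ004777, 10.85 and 10.92 with MI-2-2, 10.71 and 10.81 with the combination, and 10.29 and 10.32 with DMSO. The MI-2-2 and combination arrays lay above DMSO and the EPZ004777 arrays below it. The changes of 0.57 ± 0.11 with MI-2-2 and 0.45 ± 0.11 with the combination passed the test (limma adjusted p = 0.00846 and 0.0148), but both calls were lost without either SEM DMSO array, the first also without MI-2-2 replicate 3 and the second without combination replicate 3.

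SERTAD1, a regulator of cyclin-dependent kinase 4 activity, had 6.04, 5.78 and 5.97 with EPZ004777, 6.48 and 6.44 with MI-2-2, 6.80 and 7.11 with the combination, and 6.03 and 5.84 with DMSO in SEM. The combination arrays were highest, MI-2-2 next, and EPZ004777 overlapped with DMSO. SERTAD1 rose by 1.02 ± 0.13 with the combination (limma adjusted p = 0.000801). TIGAR had 8.35, 8.29 and 8.09 with EPZ004777, 9.16 and 9.03 with MI-2-2, 9.17 and 9.39 with the combination, and 8.48 and 8.35 with DMSO. It was higher on all MI-2-2 and combination arrays, by 0.68 ± 0.12 and 0.87 ± 0.12 (limma adjusted p = 0.00622 and 0.00108). PERP had 5.66, 5.74 and 5.92 with EPZ004777, 4.89 and 4.45 with MI-2-2, 5.42 and 4.84 with the combination, and 4.74 and 4.75 with DMSO. EPZ004777 alone gave no overlap with the MI-2-2 arrays or with DMSO. The DMSO and MI-2-2 arrays lay under their arrays' 40th percentiles of 4.89 to 4.91, so PERP entered the SEM fit through the groups where it was high, and its change has no measured lower level and no support from its call. TNFRSF10B rose under all 3 treatments in SEM, EPZ004777 giving 0.44 ± 0.06, MI-2-2 0.68 ± 0.07 and the combination 0.78 ± 0.07. GADD45A, a growth arrest and repair gene, fell by 0.70 ± 0.09 with MI-2-2 and by 0.80 ± 0.09 with the combination.

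SESN1 was the SEM member whose direction depended on the compound: it fell by 0.74 ± 0.07 with EPZ004777, but MI-2-2 raised it by 0.56 ± 0.08 and the combination by 0.37 ± 0.08 (limma adjusted p = 0.00109, 0.0028 and 0.0106). The combination was higher than EPZ004777 alone by 1.11 (limma adjusted p = 3.59e-05), in a comparison that gave 7 members higher and 3 lower, against 15.4% and 11.5% of all genes. MDM2 ranged from 11.87 to 12.21 on the treated SEM arrays, against 12.15 and 12.29 with DMSO, with no call for the probe set of highest mean. The calls with MI-2-2 and the combination coincided with the low actin values, and with that value as a covariate limma called 1, 0 and 0 members for EPZ004777, MI-2-2 and the combination. In that line the actin value and those 2 treatments cannot be told apart, and the share of all genes called under the covariate is not given here. Without SEM DMSO replicate 3 the counts were 1, 3 and 6. Myeloid markers moved with the same groups: their summed log2 level over 5 markers was 34.7 to 34.8 with MI-2-2 and 38.6 to 39.2 with the combination, against 27.0 to 27.5 with DMSO. LYZ rose by 6.33 and CSF1R by 2.35 with the combination, and 4 stromal markers summed to 22.3 to 23.5 with the combination, against 17.3 to 18.1 with DMSO. The DMSO mean of LYZ, 4.97, was near the DMSO arrays' 40th percentile of 4.89. Those of the stromal markers COL1A2 and COL3A1, 4.12 and 3.63, lay under it. The part of these shifts in the p53 targets was not tested.

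RS4;11, SEM and REH received each single compound at the same dose for the same time, and the effects were set against each other in 1 fit of 32 arrays. At an unadjusted p under 0.05, 10, 15 and 15 members differed for EPZ004777, MI-2-2 and the combination. The REH effect was subtracted from the mean of the RS4;11 and SEM effects, and the result was called positive for 11 members with the combination, against 10% of all 14919 genes, and negative for 0, against 10.6%. It was positive for 7 and negative for 0 with EPZ004777, against 2.49% and 2.77%, and positive for 5 and negative for 1 with MI-2-2, against 7.93% and 5.73%. The median difference over the 27 members was 0.19, 0.23 and 0.42 for EPZ004777, MI-2-2 and the combination, while that of all genes was −0.02, 0.00 and −0.02. FAS, TIGAR and SESN1 differed most in the combination, by 1.28 ± 0.26, 1.20 ± 0.13 and 1.09 ± 0.12 (limma adjusted p = 0.000926, 2.03e-07 and 3.6e-07). The other 8 were APAF1, SERTAD1, ZMAT3, TNFRSF10B, TP53INP1, TP53I3, CDKN1A and RRM2B, between 0.42 and 0.99. FAS with DMSO was 5.935 and 4.912 in SEM, near those arrays' 40th percentiles of 4.89, against a mean of 8.28 in REH. TP53I3 with DMSO had a mean of 5.06 in RS4;11, near the 40th percentile of 4.897, against 9.40 in REH. These levels left little room for a fall as in REH, and their part in the differences was not tested. The 11 kept their call under each of the 23 alternatives run, which included REH DMSO replicates 1 and 3 left out together and the actin value as a covariate, with 1 slope for the 3 lines. In SEM on its own that covariate left no member called for MI-2-2 or the combination, treatments from which it cannot be told apart there. In the fit of 32 arrays the covariate gave 4 called differences for EPZ004777, without those of CDKN1A, TP53I3 and TIGAR, 8 for MI-2-2 and 11 for the combination. The share of all genes called with the covariate is not given here.

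**Figure D4:**
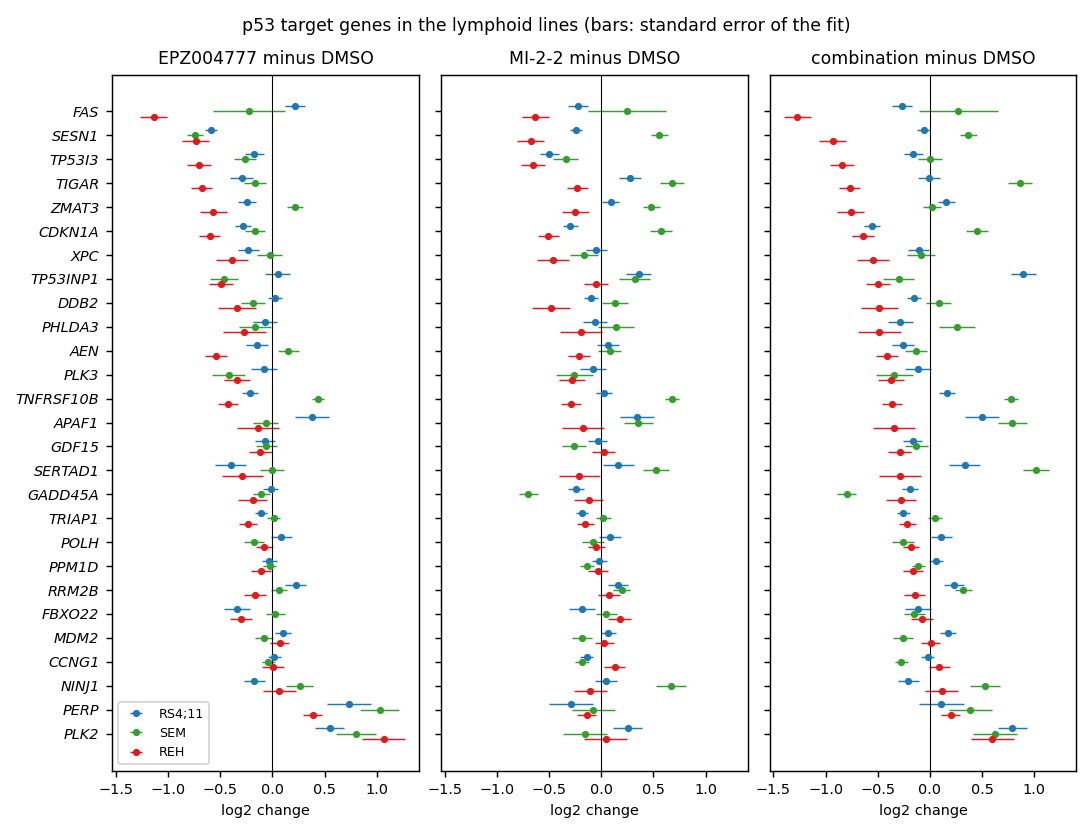
Points give the log2 change against DMSO (horizontal axis) of 27 p53 target genes (rows, from the lowest to the highest combination change in REH) in RS4;11, SEM and REH, with 1 panel per treatment and bars for the SE of the fit. In the combination panel FAS, SESN1, TP53I3, TIGAR and ZMAT3 lie between −0.76 and −1.27 in REH and further to the right in RS4;11 and SEM, while PLK2 is positive in all 3 lines.

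For ZMAT3 the effect differed with each compound, by 0.55 ± 0.13 for EPZ004777, 0.53 ± 0.13 for MI-2-2 and 0.85 ± 0.13 for the combination, and none of these calls was lost under an alternative of this fit. Within SEM, ZMAT3 with MI-2-2 turned to −0.11 with the actin covariate. For CDKN1A the EPZ004777 difference of 0.38 ± 0.11 was fragile, with an adjusted p of up to 0.126 and the call lost under 17 of 24 alternatives, while the MI-2-2 difference of 0.65 ± 0.11 held under all 23 run. With EPZ004777 the difference in FAS, 1.13 ± 0.26, was lost when REH DMSO replicates 1 and 3 were left out together (adjusted p = 0.119). The negative difference was CCNG1, a cyclin gene of p53 feedback, at −0.29 ± 0.09 with MI-2-2, a call lost under 15 of 23 alternatives. The mean over RS4;11 and SEM also hid differences between those 2 lines, a comparison added after the values were seen. With EPZ004777 the effect in SEM minus that in RS4;11 was called positive for 1 member, TNFRSF10B, and negative for 0, against 1.98% and 1.94% of all genes, with 4 members at an unadjusted p under 0.05. With MI-2-2 it was positive for 3 and negative for 0, against 4.1% and 2.59%. With the combination it was called positive for 5 members and negative for 3, against 6.29% and 6.5% of all genes. It was 1.01 ± 0.14 for CDKN1A and −1.20 ± 0.20 for TP53INP1 (limma adjusted p = 1.56e-05 and 9.29e-05).

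MOLM-13 had many calls with EPZ004777 and the combination, both among the p53 targets and among all genes. EPZ004777 lowered 13 of 27 members (48.1%) and raised 2 (7.41%), against 12.5% and 15.3% of all 14060 genes. MI-2-2 lowered 2 and raised 4, against 8.36% and 10.2%, and the combination lowered 10 and raised 8, against 25.8% and 23.7%. The median change of the members was −0.17, −0.01 and −0.05 for EPZ004777, MI-2-2 and the combination. That of all genes was 0.03, 0.02 and 0.00. TIGAR had 9.44, 9.62 and 9.75 with EPZ004777, 9.77, 9.76 and 9.86 with MI-2-2, 9.15, 9.20 and 9.24 with the combination, and 10.35, 10.29 and 10.48 with DMSO. It was lower on every treated array, by 0.77 ± 0.08, 0.58 ± 0.08 and 1.18 ± 0.08 in that order (limma adjusted p = 4.11e-05, 0.000491 and 4.63e-07). CDKN1A had 11.89, 11.84 and 11.84 with EPZ004777, 12.23, 12.36 and 12.55 with MI-2-2, 12.23, 12.19 and 12.31 with the combination, and 12.43, 12.30 and 12.37 with DMSO. The EPZ004777 arrays were below all DMSO arrays, while the MI-2-2 and combination arrays overlapped with DMSO. CDKN1A fell with EPZ004777, with a change of −0.51 ± 0.07 (limma adjusted p = 0.000547).

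TP53I3 had 6.68, 6.55 and 6.63 with EPZ004777, 5.54, 6.06 and 6.22 with MI-2-2, 6.17, 6.54 and 6.28 with the combination, and 7.04, 6.87 and 6.92 with DMSO in MOLM-13. All treated arrays were below DMSO, and the calls were for MI-2-2, at −1.002 ± 0.15, and the combination, at −0.61 ± 0.15 (limma adjusted p = 0.00108 and 0.00573). PERP had 7.95, 7.76 and 7.92 with EPZ004777, 6.68, 6.31 and 6.66 with MI-2-2, 7.81, 8.14 and 8.10 with the combination, and 6.54, 7.08 and 7.17 with DMSO. It rose by 0.94 ± 0.16 and 1.08 ± 0.16 where EPZ004777 was present (limma adjusted p = 0.0016 and 0.00022), and the MI-2-2 arrays overlapped with DMSO. APAF1 rose under all 3 treatments, by 0.45 ± 0.05, 0.54 ± 0.05 and 1.00 ± 0.05. AEN fell by 0.80 ± 0.07 with the combination, more than with EPZ004777 alone by 0.46 (limma adjusted p = 0.000538). In that comparison 7 members were higher and 3 lower, against 14.4% and 18.9% of all genes. NINJ1, a gene of membrane rupture in dying cells, changed direction: it fell by 0.39 ± 0.10 with EPZ004777 and rose by 0.39 ± 0.10 with the combination. Without MOLM-13 MI-2-2 replicate 2 the MI-2-2 count was 3 members. Leaving out single MOLM-13 arrays gave 1813 to 2706 of all genes called for MI-2-2.

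In MOLM-13 the myeloid markers rose with the treatments, with a summed log2 level over 5 markers of 61.0 to 61.2 with EPZ004777, 58.0 to 59.3 with MI-2-2 and 63.4 to 63.5 with the combination, against 55.7 to 56.1 with DMSO. MPO rose by 3.02 with EPZ004777 and by 3.26 with the combination. The summed level over 4 T and NK cell markers was 25.9 to 26.4 with EPZ004777, 22.4 to 22.9 with MI-2-2 and 26.2 to 26.4 with the combination, against 22.2 to 22.6 with DMSO. The part of these shifts in the p53 targets was not tested.

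In the mouse MLL-AF9 cells the single compounds moved few p53 targets. With EPZ004777 limma called 0 of 27, with 5 at an unadjusted p under 0.05, against 4.22% of all 13365 genes called higher and 1.38% lower. MI-2-2 raised Plk2 by 0.91 ± 0.19 and lowered Sesn1 by 0.74 ± 0.19 (limma adjusted p = 0.019 and 0.049), against 3.24% and 2.02% of all genes. Without MI-2-2 replicate 1, 2 or 3, or DMSO replicate 1 or 3, limma called 0 members. Leaving out single mouse arrays gave 416 to 671 of all genes called for MI-2-2. The combination raised 11 and lowered 11, against 28.5% and 36.2% of all genes, so the 40.7% of members in each direction stand beside a background in which most genes were called.

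Btg2, an antiproliferative target, had 8.70, 8.84 and 8.51 with EPZ004777, 8.85, 8.80 and 8.86 with MI-2-2, 11.26, 10.00 and 9.99 with the combination, and 7.92, 8.30 and 8.35 with DMSO. The combination arrays were above all the rest, replicate 1 by the most, with a change of 2.23 ± 0.29 (limma adjusted p = 5.24e-05), or 3.07 with replicates 2 and 3 left out. Trp53inp1 had 11.24, 11.42 and 11.26 with EPZ004777, 11.49, 11.35 and 11.42 with MI-2-2, 13.27, 13.03 and 13.02 with the combination, and 10.74, 11.27 and 11.21 with DMSO. It rose by 2.03 ± 0.14 (limma adjusted p = 4.49e-07), with every combination array above every other array. Zmat3 had 11.74, 11.69 and 11.66 with EPZ004777, 12.06, 12.16 and 12.20 with MI-2-2, 10.71, 9.19 and 9.27 with the combination, and 11.77, 11.79 and 11.84 with DMSO. It fell by 2.08 ± 0.31 (limma adjusted p = 0.000166). Combination replicate 1 stood apart from replicates 2 and 3, the arrays with the high GAPDH values, and with those left out together the change of Zmat3 was −1.09. Cdkn1a had 12.21, 12.24 and 12.25 with EPZ004777, 12.39, 12.34 and 12.43 with MI-2-2, 11.996, 11.57 and 11.21 with the combination, and 12.48, 12.37 and 12.42 with DMSO. It fell by 0.83 ± 0.16 with the combination (limma adjusted p = 0.000829), with the smallest drop on replicate 1, and the change was −0.43 with replicates 2 and 3 left out. Mdm2 was 12.73, 12.37 and 12.46 with the combination against 12.38, 12.41 and 12.42 with DMSO, and it was not called.

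**Figure D5:**
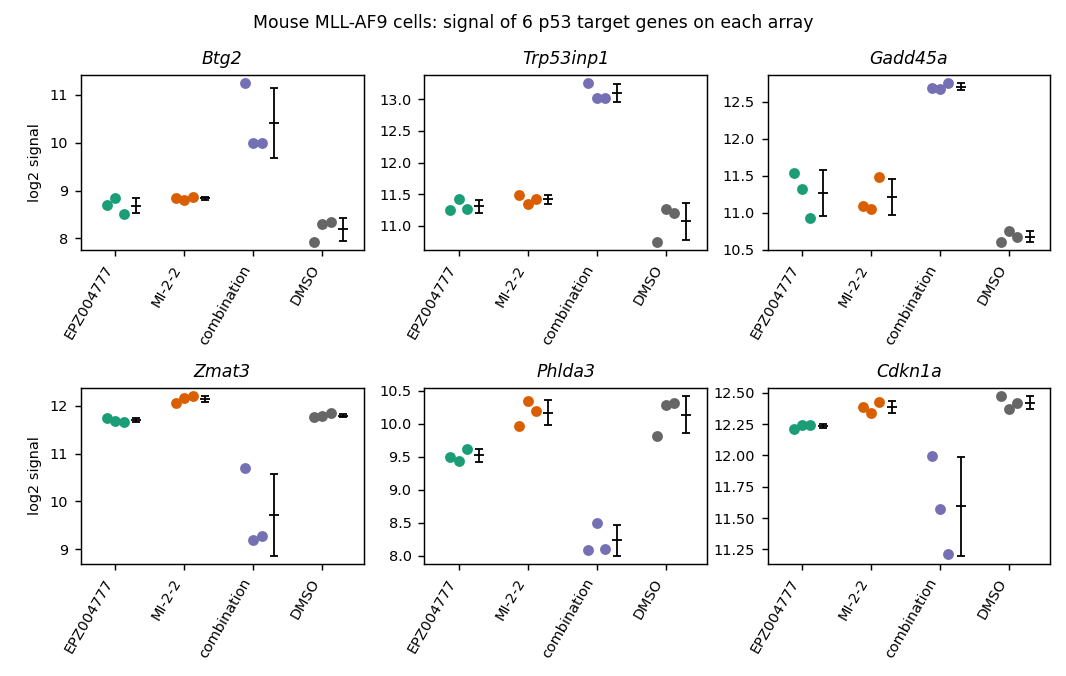
Each panel plots the log2 signal (vertical axis) of 1 p53 target gene on the 12 arrays of mouse MLL-AF9 cells, with points for arrays and a bar for the mean ± SD of the 3 arrays of a group. Btg2, Trp53inp1 and Gadd45a are higher and Zmat3, Phlda3 and Cdkn1a lower on all 3 combination arrays, and the combination arrays of Btg2, Zmat3 and Cdkn1a are spread more widely than those of the other groups.

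By role, 5 of the 6 mouse members of cell cycle and growth arrest rose with the combination, all except Cdkn1a, while 4 of 11 death receptor and apoptosis members rose and 7 fell, where 28.5% of all genes rose and 36.2% fell. Among the 4 was Apaf1 at 0.57, which turned to −0.22 with the mean of all probe sets. Gadd45a rose by 2.02 ± 0.16, Fas by 1.48 ± 0.12 and Ddb2, a DNA damage sensor gene, by 1.65 ± 0.17. Phlda3 fell by 1.91 ± 0.16, Tnfrsf10b by 1.57 ± 0.21 and Aen by 1.55 ± 0.16. With combination replicates 2 and 3 left out together only replicate 1 remained, so no count of called members is given for that setting. Myeloid markers summed to 63.8 to 64.7 with the combination, against 50.8 to 57.4 with DMSO, and the summed level of 4 stromal markers was 23.8 to 24.3 against 18.2 to 18.9. Of the 4, 1, Col1a1, passed the filter and rose by 6.38, to 11.37. Its DMSO mean of 4.99 lay under the DMSO arrays' mean 40th percentile of 5.38, so the rise has no measured lower level. B-lymphoid markers summed to 30.2 to 31.97 over 5 markers with the combination, against 33.9 to 34.6 with DMSO, and T and NK cell markers to 15.97 to 17.4 over 3 markers, against 13.99 to 14.15. The filter was passed by 4 of these 5 B-lymphoid markers and 2 of these 3 T and NK cell markers. The part of these shifts in the p53 targets was not tested.

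Across the 5 models, CDKN1A, the cell cycle inhibitor gene, fell in RS4;11, REH, MOLM-13 and the mouse cells in at least 1 comparison, and rose in SEM. PLK2 was called higher in 8 of the 15 comparisons against DMSO and lower in 0. In those 15, 0.396% to 28.5% of all genes were called higher and 0.85% to 36.2% lower. GADD45A fell in SEM and rose in MOLM-13 and the mouse cells. In the feedback group, made up of MDM2, PPM1D, CCNG1 and FBXO22, the probe sets of highest mean gave 1 call in the lymphoid lines. It was CCNG1 at −0.27 ± 0.07 in the SEM combination, where 15.2% of all genes were called lower. MOLM-13 gave 3 lower calls in that group with EPZ004777, at −0.22 to −0.26, where 12.5% of all genes were called lower.

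In the death receptor and apoptosis group, 6 of 11 members fell in REH with EPZ004777, against 1.13% of all genes, and 6 of 11 with the combination, against 2.93%. In SEM 3 of 11 rose with the combination, against 14.3% of all genes. With the actin value as a covariate no member was called there, but in SEM that value and the combination cannot be told apart. FAS itself was lower in REH, not called in RS4;11 or SEM, and higher in the combination of MOLM-13 by 0.34 ± 0.12 and of the mouse cells. PERP was called higher in 5 comparisons against DMSO and lower in 0, and 1 of the 5 is SEM with EPZ004777, where its DMSO arrays lay below the filter. All arrays of the lower group were also below the filter for the calls of TP53I3 in RS4;11 with MI-2-2 and Eda2r in the mouse combination. Among the 4 repair and nucleotide supply genes, the REH comparisons gave no call. POLH, a translesion polymerase gene, fell by 0.27 ± 0.06 with EPZ004777 in MOLM-13, and RRM2B, a ribonucleotide reductase subunit gene, rose by 0.32 ± 0.08 in the SEM combination. GDF15, a secreted stress cytokine gene, was called in MOLM-13 and in no other human line, at −0.36 ± 0.12 with EPZ004777 and −0.41 ± 0.12 with the combination.

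Further genes of the pathway were listed beside these members, among them 20 further p53 targets, of which 18 were tested in REH. PIDD1, a scaffold of a caspase-activating complex, was the 1 gene called lower with EPZ004777 and with MI-2-2, at −0.63 and −0.67, against 1.13% and 0.85% of all genes. With the combination 2 were called lower, PIDD1 at −0.75 and ASCC3 at −0.48, against 2.93% of all genes. In the SEM combination 4 of 19 were higher, against 14.3% of all genes, including TNFRSF10A at 1.30 and FUCA1 at 0.81, and 1, SESN2, was lower, at −2.37, against 15.2%. SESN2 also fell by 1.83 in the RS4;11 combination. Of 20 regulators of p53, 1 of 17 tested was called in the REH combination, CHEK2 at 0.36, where 4.1% of all genes were called higher and 2.93% lower. In the MOLM-13 combination 9 of 18 were called, 5 higher and 4 lower, against 23.7% and 25.8% of all genes, with HIPK2 at 1.47 and PRMT5 at −0.83.

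Of 12 mitotic and cell cycle genes that p21 and the DREAM complex are known to repress, limma called 0 in REH with any treatment, with 7, 1 and 6 at an unadjusted p under 0.05 for EPZ004777, MI-2-2 and the combination. Across these REH comparisons 0.396% to 4.1% of all genes were called higher and 0.85% to 2.93% lower. All 12 rose in MOLM-13 with EPZ004777, against 15.3% of all genes, and with the combination, against 23.7%, with AURKB at 0.54 and 0.68. In MOLM-13 3 fell with MI-2-2, against 8.36%. In SEM 5 rose with the combination, against 14.3%, among them CENPA at 0.62, and in RS4;11 2 fell with the combination, CDC25C and MCM5, against 12.4%. Of 10 stress genes downstream of ATF4 and CHOP, 9 fell in the RS4;11 combination, 9 in the SEM combination and 8 in the MOLM-13 combination, where 12.4%, 15.2% and 25.8% of all genes were called lower, with CHAC1 at −2.07 and −3.49 in the lymphoid lines and STC2 at −2.12 in MOLM-13. In REH 2 of 9 tested stress genes fell with the combination, TRIB3 at −1.15 and DDIT3 at −0.41, against 2.93% of all genes. In the mouse combination 7 of 15 further targets rose and 3 fell, against 28.5% and 36.2% of all genes, with Sytl1 at 2.66 and Cd82 at 1.55, and Prmt5 fell by 3.23 among the regulators.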

How the data were processed

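RNA of 44 human and 12 mouse samples, amplified from small amounts of total RNA, was measured on Affymetrix expression arrays. The authors deposited log2 values per probe set, per the submitters' processing notes, which name RMA, affy and R 3.0.2; which arrays were normalized together is not given in the sources used here. The medians of the MOLM-13 and mouse arrays differ from those of the other lines, so levels were set side by side within a cell model. The exception was the DMSO levels of FAS and TP53I3 in the lymphoid lines. The labels call the replicates biological.

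Probe sets with 1 gene symbol in the platform annotation were used (41091 human, 34945 mouse), and the one with the highest mean stood for a gene. Genes exceeding an array's 40th percentile for 2 or more arrays were fitted per cell model with limma 3.58.1 (R 4.3.3), with Benjamini-Hochberg adjustment over all genes and calls at 0.05. The lymphoid lines were also fitted together (32 arrays, 12 groups) to test differences between effects. The fit was tested on simulated data. Figures were drawn with matplotlib 3.10.9 (Python 3.11.15).

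The members and lists were chosen with earlier results of these data known. Values on every array are given for CDKN1A and MDM2, and per model for up to 3 called members of the largest change whose treated arrays all lie on 1 side of DMSO; other arrays' values and other genes were named for the probe-set comparison after their values were seen. Of other lists, up to 3 called genes of the largest change per comparison were named. Residuals of samples with the same replicate number correlated from −0.47 to 0.48 in REH, against −0.41 to 0.473 for samples with different numbers. The median for the same number was below that for different numbers in each human line. In the mouse cells it was above, at 0.10 against −0.07. Numbers were not used as pairs. Alternatives covered the filter, normalization, probe set choice, pooled fit, replicate block, quality covariates and each array left out. Human BTG2, FDXR and mouse Gdf15 were not analysed here.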

Additional observations from a re-analysis of the deposited data

Results flagged for a closer look

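These members are listed because the effect of a treatment differed between cell lines in a test of the difference itself, in the limma fit of the 32 lymphoid arrays, with adjusted p under 0.05 over all genes. With the REH effect subtracted from the RS4;11 and SEM mean, the log2 difference was for EPZ004777 1.13 in FAS, 0.553 in ZMAT3, 0.541 in AEN, 0.538 in TNFRSF10B, 0.485 in TP53I3, 0.446 in TIGAR and 0.378 in CDKN1A. For MI-2-2 it was 0.831 in SESN1, 0.705 in TIGAR, 0.647 in CDKN1A, 0.638 in TNFRSF10B, 0.532 in ZMAT3 and −0.293 in CCNG1. For the combination it was 1.28 in FAS, 1.20 in TIGAR, 1.09 in SESN1, 0.991 in APAF1, 0.961 in SERTAD1, 0.848 in ZMAT3, 0.834 in TNFRSF10B, 0.796 in TP53INP1, 0.763 in TP53I3, 0.592 in CDKN1A and 0.423 in RRM2B. With DMSO, FAS in SEM and TP53I3 in RS4;11 lay near the filter level, which left little room for a fall.

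The effect in SEM minus that in RS4;11 was 0.652 in TNFRSF10B for EPZ004777, the 1 member called, against 1.98% of all genes higher. For MI-2-2 it was 0.870 in CDKN1A, 0.798 in SESN1 and 0.657 in TNFRSF10B, against 4.1% of all genes higher. For the combination it was 1.01 in CDKN1A, 0.876 in TIGAR, 0.738 in NINJ1, 0.613 in TNFRSF10B and 0.303 in TRIAP1, and −1.20 in TP53INP1, −0.605 in GADD45A and −0.434 in MDM2. The SEM effects of MI-2-2 and the combination go with the low actin values of those arrays. With the actin value as a covariate in the fit of 32 arrays, the call of GADD45A was lost (−0.42, adjusted p = 0.0964) and the other calls of this paragraph were kept.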

How the results depend on the processing

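Counts of called members against DMSO depended on single arrays in the smaller groups. Leaving out 1 array at a time gave, for EPZ004777, MI-2-2 and the combination in turn, 1 to 2, 1 to 4 and 3 to 6 in RS4;11, 1 to 5, 3 to 6 and 5 to 9 in SEM, 6 to 11, 0 to 4 and 6 to 12 in REH, 10 to 15, 3 to 7 and 16 to 18 in MOLM-13, and 0 to 2, 0 to 1 and 20 to 25 in the mouse cells. The difference between RS4;11 with SEM and REH gave 4 to 8, 5 to 10 and 11 to 15. The calls over all genes varied too. In the same order they were 279 to 1031, 18 to 1306 and 450 to 1961 in REH. In MOLM-13 they were 2869 to 3595, 1813 to 2706 and 6188 to 6486. In the mouse cells they were 456 to 628, 416 to 671 and 7758 to 10216. For RS4;11, SEM and the difference they are not given, as some of these runs left 1 array in a group. With the mean of all probe sets the counts were 6 (RS4;11 MI-2-2), 8 (RS4;11 combination), 2 (SEM EPZ004777) and 1 (mouse EPZ004777). With no filter, and with quantile normalization again, they were 1 for RS4;11 EPZ004777 and 1 for mouse MI-2-2. The fit of all 44 human arrays gave 7 for REH MI-2-2 and 14 for the REH combination. With the replicate block, which the residuals do not bear out as a pairing, they were 2 and 5 for SEM EPZ004777 and combination, 7 and 0 for REH EPZ004777 and MI-2-2, 1 for mouse EPZ004777, 1 for mouse MI-2-2 and 3 for the EPZ004777 difference. With actin as a covariate they were 1, 0 and 0 in SEM, 6 and 0 for REH EPZ004777 and MI-2-2, and 4 for the EPZ004777 difference. With GAPDH the count was 2 for REH MI-2-2. The share of all genes called is not given here for the settings other than single arrays left out. The counts under those settings therefore have no background beside them. The cause was not tested.

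Directions that turned with the mean of all probe sets were MDM2 in the REH combination (−0.50) and in the combination difference (0.45), FBXO22 in RS4;11 combination minus MI-2-2 (−0.24), and in the mouse combination Fbxo22 (−0.28 against DMSO, −0.043 against EPZ004777, −0.12 against MI-2-2) and Apaf1 (−0.22, −0.45 and −0.48). ZMAT3 in SEM MI-2-2 turned to −0.11 with actin. Rrm2b, with 1 mouse array left out at a time, ran from −0.20 to 0.12 against EPZ004777 and from −0.16 to 0.17 against MI-2-2 in the combination, negative without replicate 1, and turned to 0.30 against DMSO without replicates 2 and 3, where Xpc turned to 0.39 and 0.45 against the single compounds. Groups of 2 or 3 arrays limit the precision.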
